A study of Mus musculus with 32 samples.

Results

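The comparison of C1H with C1M set mouse embryonic stem cells sorted for a high amount of a β-catenin fusion protein against cells of the same line sorted for a moderate amount, both kept in pluripotent culture. It was taken as the 4 C1H and the 4 C1M libraries by their labels, 8 of the 32 libraries in the series. C1 is an embryonic stem cell line in which both copies of the endogenous β-catenin gene are deleted, and it carries lentiviral inserts for the transactivator and for the fusion, EF1a-rtTA_TRE3G-DDmCherryβ-catenin S33Y. In this system doxycycline switches on transcription, trimethoprim (TMP) protects the destabilised fusion from breakdown, mCherry reports its amount, and S33Y is the stabilising change of residue 33. C1M and C1H received the same 100 ng/mL doxycycline and 10 μM TMP for 48 h and were separated afterwards by mCherry fluorescence into a middle and a high fraction, so they differ in the sort and not in the dose. The C1 control received TMP without doxycycline. The 3 groups were collected at day 0. At day 4 of monolayer differentiation the sorted cells gave 4 more groups, C1MV and C1HV without inducers and C1MDT and C1HDT with both of them. The last group, C1T, is the control with TMP alone at day 4, which was fitted with the others and compared with none here.

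The limits of these groups as a model are that all come from 1 line with 1 stabilised mutant, that the groups were parted by a sort on the fusion itself, and that a library is a bulk sample, in which fewer cells with a transcript and less of it per cell cannot be told apart. The labels call the libraries biological replicates without saying which cultures they came from. The p-values of the gene tests rest on the spread between libraries within groups, estimated over all 32 libraries and not over the 8 compared. The study's methods state culture with inhibitors of MEK and GSK3 and LIF (2i/L) before sequencing, while the labels describe serum with LIF. Messenger RNA was counted by QuantSeq, which sequences 1 fragment near the 3′ end of a transcript. Reads on genes came to between 2300242 and 3008252 in C1M and between 2331847 and 2840414 in C1H, so 3 reads, taken as the detection floor, were worth 0.997 to 1.30 CPM (a gene's reads scaled to the size of its library) in C1M and 1.06 to 1.29 CPM in C1H. Markers of embryonic stem cells summed to 4189 to 4448 CPM in C1M and 4190 to 4459 CPM in C1H, and none of the 8 passed the test between them. Of the fibroblast, endoderm, trophoblast, neural and mesoderm markers 4 of 9, 7 of 8, 4 of 6, 5 of 6 and 4 of 6 were abundant enough to be tested, and none of these passed. The 9 fibroblast markers summed to 15.7 to 20.5 CPM in C1M and 16.4 to 21.6 CPM in C1H.

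β-catenin has a pair of roles, joining cadherins to the cytoskeleton at cell contacts and, when it escapes its destruction complex, acting with TCF and LEF factors on transcription in Wnt signalling. A small share of mouse embryonic stem cells passes at any time through a 2-cell-like state, in which they transcribe genes of the embryo just after its first division, such as the Zscan4 and Usp17l families. The genes for ribosomal proteins and for subunits of the respiratory chain are among the most transcribed in these cells, are short, and tend to change together with growth.

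Of the 15280 genes tested, 271 differed between C1H and C1M at an adjusted p under 0.05 (1.77%). There were 109 genes higher in C1H (0.713%) and 162 lower (1.06%). Adjusted p-values are those of edgeR's quasi-likelihood test with Benjamini-Hochberg adjustment over all tested genes, and differences are log2(C1H/C1M) throughout. Changes were small. The median gene among those higher was 1.44-fold up, the median among those lower was 1.28-fold higher in C1M, and only 18 of the former and 4 of the latter changed at least 2-fold. The 4 libraries of each group did not overlap for 102 of the 109 and 150 of the 162 genes (8.25% of all tested genes do not overlap, 3.68% higher and 4.56% lower). It was 601 when only these 2 groups were fitted and 89 with a trend on transcript length, described below, taken out. It also depends on single libraries: without C1M replicate 2 it was 118, without C1H replicate 1 132, without C1H replicate 2 141 and without C1M replicate 1 167. There were 25 higher and 43 lower genes that passed in all 8 fits with 1 library left out.

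**Figure D1:**
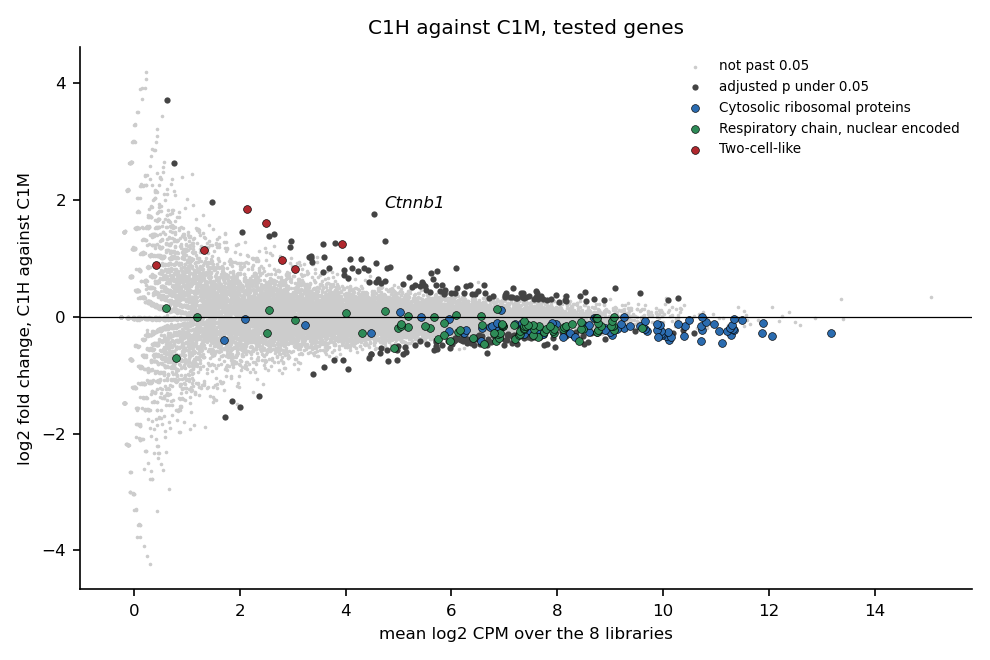
Each point is 1 of the 15280 tested genes, with its mean log2 CPM over the 8 libraries on the x axis and its log2 difference, C1H minus C1M, on the y axis. Dark points are genes at an adjusted p under 0.05, and coloured points are the tested members of the cytosolic ribosomal protein (blue), nuclear respiratory chain (green) and 2-cell-like (red) lists, called or not. The 7 red points all lie above 0, and 84 of the 86 blue points lie below it.

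The targeted transcript was the clearest change. Ctnnb1 (ENSMUSG00000006932, chr9:120929216-120960507, plus strand, mm10), which encodes β-catenin, was at 9.76, 12.1, 9.45 and 17.7 CPM in the 4 C1M libraries and at 40.5, 40.4, 48.7 and 34.9 CPM in the 4 C1H libraries. All C1H libraries lay above all C1M libraries, with a log2 difference of 1.76 (SE 0.18, adjusted p = 1.6e-13), or 3.39-fold. The C1 libraries without doxycycline were at 8.81, 6.23, 5.19 and 11.0 CPM, and overlapped C1M. These counts do not separate the construct from what remains of the endogenous gene, and they are not protein amounts: the sort was on fluorescence of the fusion. At day 4 without inducers Ctnnb1 was at 9.16 ± 2.57 CPM in C1MV and 6.21 ± 1.84 CPM in C1HV (SD, n = 4 each). With inducers it was at 29.2 ± 4.29 CPM in C1MDT and 30.8 ± 3.75 CPM in C1HDT. The day 0 difference was larger than either day 4 difference, by 2.23 (adjusted p = 1.4e-05) and 1.71 log2 units (adjusted p = 1.6e-06).

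The lists of Wnt pathway genes, none of which includes Ctnnb1 itself, held no called gene. Of 24 feedback and target genes of β-catenin and TCF, 19 were tested and 0 were called at an adjusted p under 0.05, where 1.77% of all tested genes were, so that nothing is read from a count of 0 in a list of this size, with a median difference of 0.18 against -0.00 over all tested genes. Axin2, the negative feedback gene most used as a readout of the pathway, was at 2.55, 1.42, 3.26 and 1.65 CPM in C1M and 2.39, 2.44, 1.47 and 0.841 CPM in C1H. Its groups overlapped near the detection floor, and its difference of -0.29 had a 95% interval of -1.31 to 0.73 (adjusted p = 0.90), so a change of moderate size in either direction was not detectable at this depth.

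Of the 19 target genes 12 had an estimate above 0 and 7 below. Nkd1, an inhibitor of Dishevelled, was at 0.849 to 4.95 CPM in C1M and 5.45 to 7.15 CPM in C1H, without overlap, and its difference of 0.96 (SE 0.38) did not pass the test (adjusted p = 0.21). Ccnd1, a G1 cyclin, was at 17.4 to 26.3 CPM in C1M and 14.3 to 18.8 CPM in C1H, a difference of -0.36 (SE 0.16, adjusted p = 0.29). Tnfrsf19, a receptor of the tumour necrosis factor family, had one of 0.16 (SE 0.23, adjusted p = 0.85). Among the receptors, destruction complex members and TCF factors, 0 of 31 tested genes were called, where 1.77% of all tested genes were, with a median of 0.07. The abundant kinases of the destruction complex stayed within a narrow range: Gsk3b was at 269 to 326 CPM in C1M and 298 to 347 CPM in C1H, and Csnk1a1 at 566 to 590 and 555 to 598 CPM. Of the cadherins, catenins other than Ctnnb1 and their partners, 0 of 17 were called, with a median of 0.12. Nothing is read from counts of 0 in lists of these sizes. Cdh1, which encodes E-cadherin, was at 603 to 649 CPM in C1M and 540 to 652 CPM in C1H.

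A window of 250 bases before to 50 after the start, in the RefSeq table of GRCm38.p6, was read for 11667 tested genes. The TCF letters CTTTGAT or CTTTGTT, on either strand, were in 10 of the 97 windows of higher genes (10.3%), in 7 of the 158 windows of lower genes (4.43%) and in 6.46% of the 14870 windows of all tested genes. A match in such a window is not a site, and these letters elsewhere in a gene were not searched.

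Genes of the 2-cell-like state were among the largest rises in C1H. Of 13 listed genes 12 were in the files and 7 passed the filter on low counts, and 3 of those 7 were called, all higher, against 0.713% higher among all tested genes. Since a low gene passes the filter more easily where it is high, the tested members are not a fair draw of the list. Summed over the 12 genes the level was 22.7, 26.2 and 27.3 CPM as the lowest, median and highest library of C1M and 55.3, 57.9 and 67.7 CPM in C1H, with C1 at 2.10, 3.71 and 5.10 CPM. The 3 groups were apart from one another. The other 5 genes were below the filter, and Duxf3 and Tdpoz4 had no read in any of the 12 day 0 libraries.

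The 3 called members belong to families of similar copies. Zscan4c and Zscan4d encode zinc finger proteins that mark the state and act on telomeres, and Usp17lc encodes a deubiquitinase. To show how alike the called copies are before their starts, these bases are given for each with those of a called relative, with the bases that differ in capitals. The reads come from the other end of the transcript, whose likeness between copies was not tested. Zscan4c and Zscan4d shared 280 of 287 aligned bases of the whole window (97.6%), and Usp17lc and Usp17la shared 245 of 258 (94.96%). The excerpts lie at chr7:11005625-11005744 (plus), chr7:11166160-11166279 (minus), chr7:104856896-104857015 (plus) and chr7:103416534-103416653 (plus), from RefSeq on GRCm38.p6, written 5′ to 3′.
Zscan4c: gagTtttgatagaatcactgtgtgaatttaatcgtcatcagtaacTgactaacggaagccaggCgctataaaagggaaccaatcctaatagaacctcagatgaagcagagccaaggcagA
Zscan4d: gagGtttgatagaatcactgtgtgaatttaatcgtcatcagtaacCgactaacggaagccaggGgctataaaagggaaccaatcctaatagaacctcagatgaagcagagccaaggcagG
Usp17la: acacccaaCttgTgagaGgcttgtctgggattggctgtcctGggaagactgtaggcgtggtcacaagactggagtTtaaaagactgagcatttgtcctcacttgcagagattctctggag
Usp17lc: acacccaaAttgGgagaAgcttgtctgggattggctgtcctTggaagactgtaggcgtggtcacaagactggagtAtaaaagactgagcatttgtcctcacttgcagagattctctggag
Reads that fit several places equally were not counted by the authors' counter, and between 50.7% and 54.1% of all reads in these 8 libraries were set aside for that reason. The counts of single family members leave such reads out, and how many of the family's reads they hold was not tested.

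Zscan4c was at 2.12, 1.06, 1.63 and 2.48 CPM in C1M and 8.18, 6.28, 5.50 and 6.31 CPM in C1H. Its C1H libraries lay above all C1M libraries (difference 1.85, SE 0.45, adjusted p = 0.0099), and it had 19 reads over the 4 C1M libraries against 72 over the 4 C1H libraries. Zscan4d rose from 2.97, 1.42, 3.26 and 3.30 CPM to 7.50, 8.37, 9.16 and 8.41 CPM (1.60, SE 0.36, adjusted p = 0.0044). Usp17lc rose from 11.0, 8.87, 9.13 and 8.26 CPM to 21.1, 22.3, 17.6 and 27.7 CPM (1.24, SE 0.23, adjusted p = 0.00013). In C1, Zscan4c and Zscan4d had 3 reads each over 4 libraries and Usp17lc was at 0.959 to 2.26 CPM. The calls of Zscan4c and Zscan4d rest on single libraries: without C1M replicate 2 neither passed (adjusted p up to 0.07 and 0.058), and Zscan4c did not pass without C1H replicate 1 either. The members that passed the filter and not the test were Zfp352, Tcstv1, Tcstv3 and Gm5662, with differences between 0.82 and 1.14.

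Usp17la, the sister gene of Usp17lc, had the lowest adjusted p after Ctnnb1 among the higher genes. It was at 18.3, 17.0, 15.0 and 16.5 CPM in C1M and 43.3, 48.8, 36.3 and 35.3 CPM in C1H, against 0.519 to 2.52 CPM in C1. No library of C1H came near one of C1M, and the difference was 1.30 (SE 0.19, adjusted p = 9.6e-07). Fam124a (1.27, adjusted p = 0.00036), Usp26 (1.03, adjusted p = 0.005), BB287469 (1.00, adjusted p = 0.043), Gm28940 (0.98, adjusted p = 0.015), AC168977.1 (0.98, adjusted p = 0.0037) and Gm21761 (0.78, adjusted p = 8.7e-06) followed the same order of levels.

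That group was widened after its values were seen, with Gm8994, Gm5039, Gm8300, Gm5788, Gm4027 and Tmem92 added to the ones above, which made 16 called genes with differences between 0.78 and 1.85. In all 16 the mean level was lowest in C1, higher in C1M and highest in C1H, and 6 of them were at the floor in C1. As genes picked for this pattern, they describe it and support nothing. Gm8994 was at 0.519 to 3.36 CPM in C1, 14.0 to 24.2 CPM in C1M and 27.3 to 37.4 CPM in C1H. All 16 were also called with the trend on transcript length taken out, and 8 of them passed in every fit with 1 library left out.

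At day 4 the groups overlapped. The 12 listed genes summed to 29.1 to 34.96 CPM in C1MV and 18.9 to 33.5 CPM in C1HV, and to 17.3 to 23.1 CPM in C1MDT and 14.0 to 25.5 CPM in C1HDT. Of the 16 genes, Gm21761 passed the test of the difference between day 0 and day 4 both without and with inducers (0.90 and 0.83 log2 units, adjusted p = 0.0025 and 0.002), and Usp17lc and AC168977.1 passed it with inducers alone (1.41 and 1.55, adjusted p = 0.024 and 0.046). For Zscan4c the difference of differences was 2.50 without inducers (adjusted p = 0.15) and 0.68 with them (adjusted p = 0.79).

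**Figure D2:**
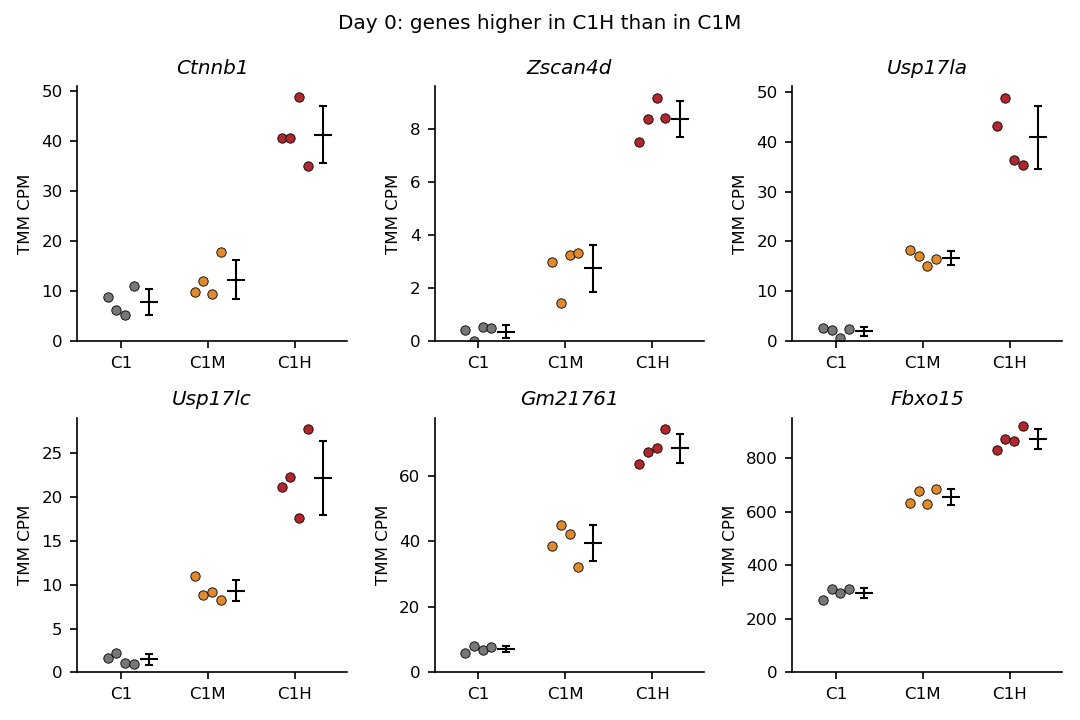
CPM of Ctnnb1, Zscan4d, Usp17la, Usp17lc, Gm21761 and Fbxo15 in each of the 12 day 0 libraries (points), with the mean and SD of each group of 4 (line and bars). In all 6 panels the C1H libraries lie above the C1M libraries, and in all but Ctnnb1 the C1 libraries lie well below both.

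Genes outside these families rose too. Robo1, a receptor of axon guidance, was at 11.0, 7.45, 6.85 and 4.13 CPM in C1M and 18.1, 15.7, 16.5 and 19.3 CPM in C1H (1.24, SE 0.25, adjusted p = 0.00098), with C1 at 4.53 to 9.23 CPM. Mecom, a zinc finger transcription factor, rose by 1.04 (adjusted p = 0.023) and Pclo, a protein of the presynaptic zone, by 1.03 (adjusted p = 0.033). With the length trend taken out Mecom kept about its size at 0.99 without passing (adjusted p = 0.062), and Pclo was at 0.76 (adjusted p = 0.28). Fgf1, a growth factor named after its values were seen, rose from 3.396, 3.90, 5.87 and 4.54 CPM to 10.9, 13.2, 6.96 and 13.5 CPM (1.30, adjusted p = 0.0023).

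Cwc22, a splicing factor of the exon junction, rose from 51.8, 43.6, 54.1 and 53.2 CPM to 106, 91.7, 80.2 and 84.1 CPM (0.84, SE 0.13, adjusted p = 1.8e-05), and C1 at 57.2 to 76.0 CPM lay between the groups. P4ha2, a prolyl hydroxylase of collagen and the 1 called gene of 20 on the hypoxia list (0.713% of all tested genes were higher), rose from 12.8 to 16.1 CPM to 24.9 to 27.5 CPM (0.84, adjusted p = 0.0035). That list as a whole lay the other way, with a median of -0.11 and a sum of 1107 to 1153 CPM in C1M and 990.5 to 1070 CPM in C1H. Exoc6 of the exocyst rose by 0.93 (adjusted p = 0.021), a call lost in at least 1 fit with 1 library left out (adjusted p up to 0.12). Dst, which encodes a very large linker of the cytoskeleton, was at 493, 367, 506 and 476 CPM in C1M and 683, 638, 598 and 656 CPM in C1H (0.48, adjusted p = 1.3e-05), but C1 was higher than both at 698 to 798 CPM, and its difference was 0.19 with the length trend taken out (adjusted p = 0.18).

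On the naive pluripotency list 1 of 22 genes rose and 1 fell, against 0.713% higher and 1.06% lower among all tested genes, with a median of -0.01 against -0.00. Fbxo15, an F-box gene active in embryonic stem cells, rose from 631, 678, 630 and 683 CPM to 831, 870, 865 and 919 CPM (0.41, SE 0.07, adjusted p = 2.6e-05). Its C1 level of 270 to 312 CPM was below both groups. Tcl1, a coactivator of AKT kinase, fell from 218 to 252 CPM to 179 to 202 CPM (-0.30, SE 0.09, adjusted p = 0.049), a call that was lost when any 1 library was left out. With the length trend taken out Tcl1 was at -0.19 (adjusted p = 0.40).

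Of 14 genes of the post-implantation epiblast, 1 fell and 0 rose, against 1.06% lower and 0.713% higher among all tested genes. Otx2, a homeodomain factor of the transition out of the naive state, was at 92.97, 117, 111 and 114 CPM in C1M and 85.5, 81.2, 74.4 and 73.6 CPM in C1H (-0.47, SE 0.09, adjusted p = 0.00045). The groups did not overlap, and C1 at 65.2 to 91.5 CPM covered the C1H range. At day 4 its level was 279 ± 26.6 CPM in C1MV and 293 ± 9.26 CPM in C1HV. The day 0 difference lay below those of day 4 by 0.53 without inducers (adjusted p = 0.035) and 0.57 with them (adjusted p = 0.0024). Of the 16 genes of general pluripotency none was called, where 1.77% of all tested genes were, and Sox2 was at 747 to 838 CPM in C1M and 728 to 788 CPM in C1H.

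The lists of germ layers and of trophectoderm held no called gene (1.77% of all tested genes were called): 0 of 13 for ectoderm, 0 of 16 for mesoderm, 0 of 20 for endoderm and 0 of 13 for trophectoderm, with medians between -0.10 and 0.10. These counts are too small to read anything from a 0. Of the lists on other functions, most had 0 or 1 called gene, against 1.77% of all tested genes. Kit, the receptor of stem cell factor, rose by 0.33 (adjusted p = 0.037) as the 1 of 23 germ cell genes, Igf2r, which clears insulin-like growth factor 2, by 0.40 (adjusted p = 0.034) as the 1 of 23 imprinted genes, and Eda2r, a receptor of the tumour necrosis factor family, by 0.77 (adjusted p = 0.044) as the 1 of 17 targets of p53. Once the length trend was taken out these were at 0.29, 0.28 and 0.75 and none passed (adjusted p = 0.11, 0.31 and 0.094), nor did they in every fit with 1 library left out (adjusted p up to 0.16, 0.25 and 0.22). Among 24 immediate early genes, Dusp5, a phosphatase of ERK, rose by 0.80 (adjusted p = 0.025) and Ier2 fell by 0.36 (adjusted p = 0.045). With the length trend taken out none of the 24 was called lower. Aurka, a mitotic kinase, rose by 0.38 (adjusted p = 0.038) as the 1 of 28 mitosis genes. In DNA replication 3 of 35 genes fell, against 1.06% of all tested genes, namely Rpa2 of the single-strand binding complex by 0.32 (adjusted p = 0.0037), Mcm5 of the helicase by 0.32 (adjusted p = 0.0049) and Gins2 by 0.41 (adjusted p = 0.022). On that list 2 genes were called lower with the length trend taken out.

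The genes lower in C1H were led by ribosomal proteins. Of 86 tested genes for proteins of the cytosolic ribosome, 28 fell and 0 rose, against 1.06% lower among all tested genes, and the median difference was -0.20 against -0.00. The estimate was below 0 in 84 of the 86. Their summed share of reads on genes was 9.55% to 10.1% in C1M, 8.40% to 8.59% in C1H and 7.10% to 8.06% in C1, so C1M was highest and C1H lay between it and the control. For 81 of the 86 genes the C1 mean was below the C1M mean. With the length trend taken out 5 of them were still called, Rps12, Rps15a, Rps20, Rps24 and Rps25, and the median was -0.06.

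Rps24 (ENSMUSG00000025290, chr14:24487125-24496959, plus strand), a protein of the small subunit, was at 2715, 2599, 2637 and 2392 CPM in C1M and 1892, 1899, 1921 and 1832 CPM in C1H. The groups were far apart relative to their spread, and the difference was -0.46 (SE 0.06, adjusted p = 2.2e-07), the lowest adjusted p of all lower genes. C1, at 1816 to 2038 CPM, covered the C1H range. Rps12 fell from 1892, 1886, 1970 and 2058 CPM to 1471, 1369, 1528 and 1514 CPM (-0.41, SE 0.06, adjusted p = 6.9e-06) and Rps25 from 1202, 1270, 1270 and 1350 CPM to 991, 982, 961 and 940 CPM (-0.39, SE 0.06, adjusted p = 7.2e-06). Rps24, Rps12 and Rps25 stayed below the threshold with the length trend taken out, at -0.36, -0.22 and -0.28 (adjusted p = 2.5e-05, 0.045 and 0.0025). Rpl12 of the large subunit fell by 0.33 (adjusted p = 0.00034) and did not pass then (adjusted p = 0.055).

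Genes for ribosomal proteins are known for a run of pyrimidines, beginning with C, at the start of their messenger RNA, through which growth signals act on their translation. For each of the 4 genes above, where several starts were annotated, the start with the longest such run was taken. The runs shown are thus selected for length, and the start shown for Rps24 lies inside the gene's span given above. The 20 bases on each side of the start taken are shown, with the longest run that starts with C in capitals. They are from RefSeq on GRCm38.p6, written 5′ to 3′, at chr14:24490658-24490697 (plus), chr10:23787190-23787229 (minus), chr9:44407694-44407733 (plus) and chr2:32961692-32961731 (plus).
Rps24: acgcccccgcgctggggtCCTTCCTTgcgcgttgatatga
Rps12: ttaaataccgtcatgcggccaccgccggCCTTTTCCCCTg
Rps25: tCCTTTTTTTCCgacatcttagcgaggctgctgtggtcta
Rpl12: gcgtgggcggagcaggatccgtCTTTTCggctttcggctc
The runs were 8, 11, 11 and 6 bases long. They do not lie at 1 common position: those of Rps24 and Rps25 begin before the annotated start and those of Rps12 and Rpl12 after it. A run of at least 7 was in 37 of 77 windows of tested ribosomal protein genes (48.1%) and in 19.4% of the 14870 windows of all tested genes. On the other strand the shares were 9.09% and 20.6%. Among ribosomal protein genes, 55.2% of the windows of those that fell and 43.8% of those not called held a run, and the difference between these shares was not tested.

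The respiratory chain and the mitochondrial ribosome moved in the same direction. Of 82 tested nuclear genes for subunits of complexes I to V, 15 fell and 0 rose, against 1.06% lower among all tested genes (median -0.18). Atp5j2 of the ATP synthase fell from 372, 409, 392 and 404 CPM to 265, 288, 333 and 295 CPM (-0.42, adjusted p = 0.00012), Atp5e by 0.47 (adjusted p = 0.00044), Cox7b of cytochrome oxidase by 0.39 (adjusted p = 0.0027) and Ndufs4 of complex I by 0.41 (adjusted p = 0.0049). With the length trend taken out 2 of them were still called, Atp5j2 and Atp5g1, and the median was -0.05. Of 76 proteins of the mitochondrial ribosome 3 fell, Mrpl30, Mrpl12 and Mrpl33, with a median of -0.14, and none did with the trend taken out. The 12 tested genes of the mitochondrial genome itself held 0 calls, where 1.77% of all tested genes were called. Nothing is read from a 0 in so short a list, and with the trend taken out 1 of the 12 was called higher.

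**Figure D3:**
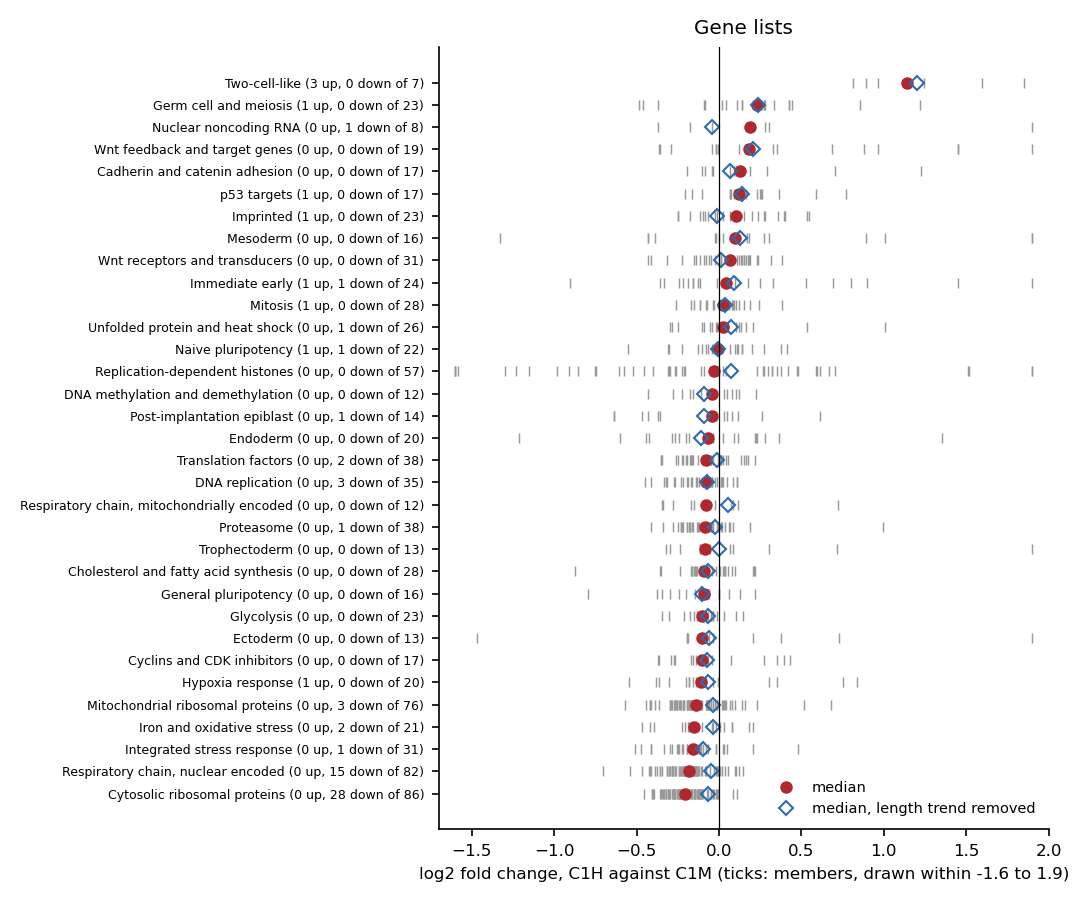
Each row is 1 of the 33 gene lists, with the log2 difference, C1H minus C1M, on the x axis: grey ticks are genes (those beyond the range are drawn at its ends), filled circles the median of the list and open diamonds the median with the length trend taken out. The 2-cell-like list stands to the right with a median of 1.14, and the ribosomal and respiratory lists move from -0.20 and -0.18 to -0.06 and -0.05 when the trend is taken out.

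The 3 lists together gave 46 of the 162 lower genes. The others were of mixed function. Selenoh, a nuclear selenoprotein, fell from 249, 244, 247 and 270 CPM to 176, 190, 177 and 179 CPM (-0.48, adjusted p = 8.5e-06), and Atp6v1f, a subunit of the proton pump of lysosomes, from 415 to 448 CPM to 279 to 350 CPM (-0.46, adjusted p = 7.2e-06). Nupr1, a small stress-induced protein, fell by 0.48 (adjusted p = 3.6e-05) as the 1 of 31 genes of the integrated stress response. Prdx2 and Sod1, enzymes that remove peroxide and superoxide, were the 2 of 21 antioxidant genes that fell (1.06% of all tested genes did): Prdx2 from 168, 169, 187 and 189 CPM to 115, 141, 141 and 119 CPM (-0.47, adjusted p = 0.00012) and Sod1 from 1373 to 1507 CPM to 1158 to 1328 CPM (-0.23, adjusted p = 0.03), which was at -0.04 with the length trend taken out (adjusted p = 0.87). Of 38 translation factors, Naca, which guards nascent chains, and Eif5a fell by 0.34 (adjusted p = 0.0089) and 0.26 (adjusted p = 0.041), against 1.06% lower among all tested genes. Without that trend Naca was at -0.42 (adjusted p = 0.0011) and Eif5a at -0.16 (adjusted p = 0.42). Hspe1, the cochaperonin of mitochondria, and Psma6 of the proteasome fell by 0.28 (adjusted p = 0.0089) and 0.34 (adjusted p = 0.008). Neither was called with the length trend taken out.

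The largest falls were in genes of lower level. Dnajc30, a mitochondrial protein with a J domain, was at 12.3, 14.5, 11.1 and 16.5 CPM in C1M and 8.18, 5.58, 6.96 and 6.73 CPM in C1H (-0.97, SE 0.25, adjusted p = 0.015). Ppdpf fell by 0.85 (adjusted p = 0.02), Fuk, which salvages fucose, by 0.76 (adjusted p = 0.0019), Rps27rt, a copy related to Rps27 whose reads may be shared with it, by 0.75 (adjusted p = 0.038) and Pigf, of the synthesis of membrane anchors, by 0.75 (adjusted p = 0.026). Fuk still passed with the length trend taken out (adjusted p = 0.0038), while Dnajc30, Ppdpf, Rps27rt and Pigf were at -0.89, -0.73, -0.52 and -0.60 and did not (adjusted p = 0.061, 0.11, 0.32 and 0.18). The same 4 also lost the call in at least 1 fit with 1 library left out (adjusted p up to 0.082, 0.14, 0.18 and 0.17). Slc25a33, which carries pyrimidine nucleotides into mitochondria, fell from 39.1, 41.5, 36.8 and 39.6 CPM to 25.9, 23.0, 22.7 and 22.3 CPM (-0.74, SE 0.15, adjusted p = 0.0011), with C1 at 18.7 to 25.95 CPM. Nqo2, Hspb6, Kbtbd11, Stom, Eef1e1 and Hsbp1 fell by 0.62 to 0.70. Of these Hspb6 and Eef1e1 did not pass with the length trend taken out (adjusted p = 0.20 and 0.084), and all but Hsbp1 lost the call in at least 1 fit with 1 library left out (adjusted p up to 0.088 for Nqo2, 0.17 for Hspb6, 0.12 for Kbtbd11, 0.16 for Stom and 0.37 for Eef1e1). For Kbtbd11 the C1 level of 82.1 to 101 CPM lay far above both sorted groups. Slc7a7, an amino acid transporter named after its values were seen, was 1 of the 4 that fell at least 2-fold, all of which lay under the level the naming asks for. It was at 3.71 to 8.48 CPM in C1M and 0.841 to 2.44 CPM in C1H (-1.54, adjusted p = 0.0035).

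**Figure D4:**
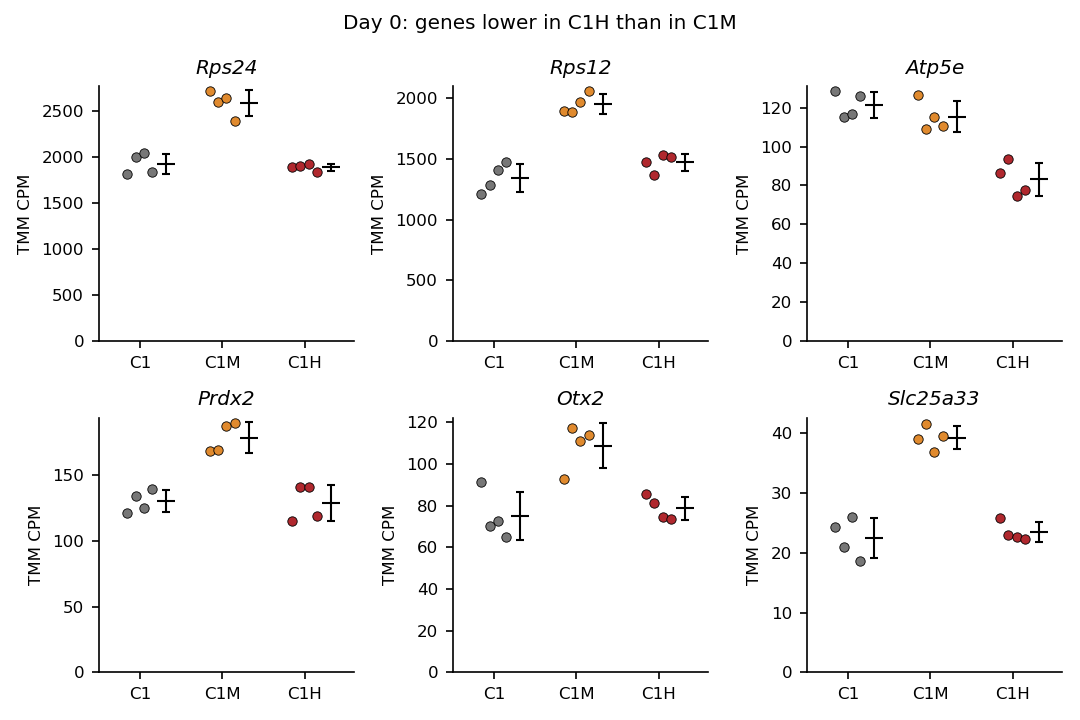
CPM of Rps24, Rps12, Atp5e, Prdx2, Otx2 and Slc25a33 in each of the 12 day 0 libraries (points), with the mean and SD of each group of 4 (line and bars). In each panel all 4 C1H libraries lie below all 4 C1M libraries, and the C1 level differs from gene to gene.

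Transcript length moved with the difference. The median annotated transcript was 4905 nucleotides long for genes higher in C1H, 1235 for genes lower and 2998 for all tested genes. Over the 5219 genes with a mean of at least 5 log2 CPM the Spearman correlation of length with the difference was 0.48, which is a correlation across genes that share the same 8 libraries. In 6 groups of these genes by length the median difference went from -0.15 in the shortest to 0.11 in the longest. The shortest group held 94 lower and 2 higher genes, and the longest 1 lower and 38 higher.

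Each library's position on this scale was read as the median deviation of the longest group minus that of the shortest, on the log2 scale. It was -0.17, -0.29, -0.13 and -0.17 in C1M and 0.10, 0.06, 0.01 and 0.09 in C1H, without overlap. C1 was at 0.05 to 0.20, on the side of C1H. As examples of long genes, named after their values were seen, Kmt2d (0.54), Kmt2a (0.30), Kmt2c (0.31) and Crebbp (0.29) were called at first (adjusted p = 0.025, 0.044, 0.032 and 0.033), and with the trend taken out none of the 4 passed, at 0.28, 0.07, 0.09 and 0.13 (adjusted p = 0.49, 0.83, 0.78 and 0.57). Taking the trend out left 89 called genes (0.582%), 55 higher (0.36%) and 34 lower (0.223%), of which 47 and 31 were among the 109 and 162. Of the 46 lower genes of the ribosomal and respiratory lists, 7 remained.

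Measures of the libraries moved with the groups as well. Reads outside annotated genes made up 20.7% ± 0.708 of the uniquely placed reads in C1M and 22.6% ± 0.410 in C1H (SD, n = 4 each, two-sided exact permutation test p = 0.0286, the smallest p that 4 against 4 allows). Reads that fit several places were 53.4% ± 0.440 of all reads in C1M and 51.1% ± 0.274 in C1H (two-sided exact permutation test p = 0.0286). The share of mitochondrial reads was 2.41% ± 0.146 and 2.35% ± 0.258 (two-sided exact permutation test p = 0.714). The 8 nuclear noncoding RNAs on the list summed to 10551 to 12376 CPM in C1M and 13372 to 14984 CPM in C1H, without overlap, and to 9495 to 11656 CPM in C1. Most of that sum is Malat1, at 8589 to 10380 CPM in C1M and 11294 to 12792 CPM in C1H (0.30, adjusted p = 0.25). The part of RNA quality, sorting or these shares in the length trend and in the ribosomal genes was not tested.

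**Figure D5:**
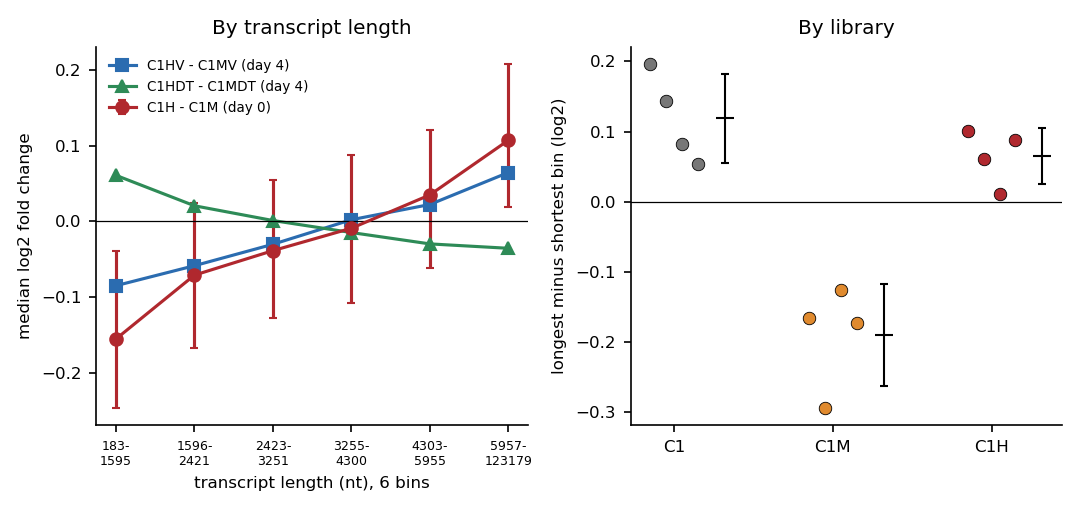
Left, median log2 difference (points) in 6 groups of genes from the shortest to the longest transcripts, for C1H minus C1M (with quartiles as bars), C1HV minus C1MV and C1HDT minus C1MDT. Right, the longest group minus the shortest in each library (points) with mean and SD of each group, where the 4 C1M libraries lie between -0.29 and -0.13 and the 4 C1H libraries between 0.01 and 0.10.

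The same sort was compared after 4 days of differentiation in libraries that share no sample with day 0. Between C1HV and C1MV 1 gene was called (0.00654%), Slc13a5, which was lower, and 1150 (7.53%) had an unadjusted p under 0.05. Between C1HDT and C1MDT 0 were called by edgeR's quasi-likelihood test, with 814 (5.33%) at an unadjusted p under 0.05. The 162 lower genes of day 0 had an estimate below 0 for 133 in C1HV against C1MV, where 52.2% of all tested genes were below 0, and for 38 in C1HDT against C1MDT, where 47.5% were. The 109 higher genes had one above 0 for 57 and 49, where 47.4% and 51.95% of all tested genes were above 0.

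Whether those counts go with length was not tested. The Spearman correlation of length with the difference was 0.34 for C1HV against C1MV and -0.27 for C1HDT against C1MDT. In C1HDT against C1MDT the shortest group had a median of 0.06 and the longest -0.04, the reverse of day 0. The cytosolic ribosomal proteins had a median of -0.20 at day 0, -0.06 without inducers and 0.10 with them. The test of the difference between the day 0 and the day 4 comparison called 8 genes without inducers (0.0524%), 6 more positive (0.0393%) and 2 more negative (0.0131%) at day 0. With inducers it called 156 (1.02%), 41 more positive (0.268%) and 115 more negative (0.753%). With the length trend taken out the test against C1HDT and C1MDT called 20. Rps24 was among the 156, with a day 0 difference below that of C1HDT against C1MDT by 0.57 (adjusted p = 1.4e-05).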

How the data were processed

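The deposited files hold raw counts per gene, made by the authors from single-end QuantSeq 3′ reads trimmed with bbduk, aligned with STAR to mm10 (Ensembl annotation, as in the submitters' notes and the study's methods) and counted with htseq-count. Lines that name no gene were left out of library sizes. All 32 libraries in 8 groups were fitted together with edgeR 4.0.16 (R 4.3.3, limma 3.58.1; TMM factors, quasi-likelihood test, a filter that asks for 1 CPM in 4 or more of them, Benjamini-Hochberg adjusted p under 0.05). Scripts were tested on simulated data. Genes named are Ctnnb1 and Axin2, the 12 largest changes per direction with a mean of at least 3 log2 CPM, the 5 lowest adjusted p per direction, 2 to 4 genes per list (all that were called, up to 4, or else the most abundant), and the top genes that differed from day 4. All other genes were chosen after their values were seen. The comparison and the lists were chosen with earlier results of these data known. Alternatives were DESeq2 1.42.0, RLE and plain library sizes, other filters, fits of fewer groups, a replicate block, each library left out and, chosen after seeing the data, a loess trend on transcript length taken out. Counts near 3 reads carry counting error, and exact permutation tests used all 70 splits of 4 against 4.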

Additional observations from a re-analysis of the deposited data

Results flagged for a closer look

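Of 254 groups of 4 libraries screened, 11 had 1 library far from the other 3 (4.33%, where chance gives about 1 in 20). In C1M, Ppdpf was at 17.4 CPM in library 2 with the others at 14.3 to 14.9, Rif1 at 871 CPM in library 2 with the others at 992 to 1011, Stom at 53.1 CPM in library 3 with the others at 36.2 to 38.4, Lsm4 at 143 CPM in library 3 with the others at 152 to 154, Atp6v1f at 448 CPM in library 4 with the others at 415 to 418, and Epb41l4aos at 224 CPM in library 4 with the others at 197 to 201. In C1H, Psma6 was at 140 CPM in library 2 with the others at 165 to 170, Kmt2a at 244 CPM in library 2 with the others at 210 to 215, Ccnd1 at 14.3 CPM in library 3 with the others at 18.1 to 18.8, and Rpl13 at 3466 CPM in library 3 with the others at 3901 to 3986. The share of reads that fit several places was 50.7% in C1H library 1 and 51.2% to 51.3% in the others.

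Of the 122 genes screened, 7 had a day 0 difference that departed from that of C1HV against C1MV, by the test of the difference itself. Among all tested genes 0.0524% did. Some of the 122 were named for a low p in this test or for a large day 0 difference, so these counts support nothing. The day 0 log2 difference was larger by 2.23 for Ctnnb1, 0.90 for Gm21761, 0.87 for Chka (a choline kinase), 0.77 for Nelfa (of the complex that pauses RNA polymerase) and 0.52 for Fbxo15. It was lower for Otx2 (-0.53) and Slc7a7 (-1.71). At day 0 Chka rose by 0.44 and Nelfa by 0.54, and at day 4 their differences were -0.43 and -0.23.

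Against C1HDT and C1MDT 39 of the same 122 genes departed, where 1.02% of all tested genes did, and the same limit holds. Larger at day 0 were Ctnnb1 by 1.71, Fgf1 by 1.69, AC168977.1 by 1.55, Usp17lc by 1.41, Cwc22 by 0.94, Gm21761 by 0.83, Dst by 0.47 and Crebbp by 0.43. Among genes lower at day 0 the difference of differences was -1.44 for Slc7a7, -1.33 for Ppdpf, -1.29 for Pigf, -1.24 for Dnajc30, -1.08 for Hspb6, -1.01 for Eef1e1, -0.82 for Slc25a33, -0.69 for Hsbp1, -0.64 for Gsta4 (a glutathione transferase) and -0.57 for Otx2. For ribosomal and mitochondrial proteins it was -0.57 for Rps24, -0.52 for Rps12, -0.51 for Rps25, -0.47 for Rpl12, -0.54 for Mrpl30, -0.44 for Mrpl12, -0.68 for Mrpl33, -0.56 for Atp5j2, -0.70 for Atp5e, -0.54 for Ndufs4 and -0.47 for Hspe1. For the rest it was -0.56 for Atp6v1f and for Snrpd1, -0.52 for Selenoh, -0.46 for Apela, -0.45 for Prdx2, -0.44 for Epb41l4aos, -0.43 for Lsm4, -0.42 for Eif5a, -0.41 for Psma6 and -0.38 for Mcm5. Gsta4, Snrpd1, Apela, Lsm4, Rpl13 and Crebbp were chosen after their values were seen.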

How the results depend on the processing

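The 271 genes of C1H against C1M became 601 (268 higher, 333 lower) when only these groups were fitted and 480 with the 3 day 0 groups, and 89 with the length trend taken out. DESeq2 called 237, RLE factors 268, library size alone 276, no filter 277 and 1 CPM in every library 289. Leaving out 1 library gave 118 to 238. Of 85 named called genes, 69 stayed called by DESeq2, 49 with the length trend taken out and 52 (without C1M replicate 2) to 70 with 1 library left out. None reversed.

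For C1HV against C1MV the count of 1 became 3 without the filter, 0 when only those groups were fitted and 0 to 8 with 1 library left out. For C1HDT against C1MDT the count of 0 became 1 when only those groups were fitted and 1 with the length trend taken out, and stayed 0 to 0 with 1 library left out. The test against C1HV and C1MV gave 5 to 18 with 1 library left out (main 8), and the test against C1HDT and C1MDT 46 to 201 (main 156) and 20 with the length trend taken out.

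With the replicate number as a block 262 genes differed (106 higher, 156 lower), 259 of them among the 271. Deviations of same-numbered C1M and C1H libraries correlated at 0.00 to 0.03, and those of differently numbered ones at -0.02 to 0.02. Values this near 0 cannot tell whether same-numbered libraries share a culture or a sort. The counts with the block were 1, 0, 8 and 129 for the other tests. Depth limits genes near 3 reads.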

Other observations

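By chromosome, the lower genes were most frequent on chromosome 8, chosen after the values were seen: 22 of its 849 tested genes fell and 3 rose in C1H. Its share of lower genes was 2.59%, against 0.42% to 1.32% on the other chromosomes with at least 100 tested genes. Its median log2 difference was -0.06, against -0.05 to 0.03 on the others. Without inducers at day 4 it was -0.07 (others -0.04 to 0.02), and with them -0.04 (others -0.01 to 0.03). With the length trend taken out it was -0.03 at day 0 (others -0.02 to 0.04). Read per library, the median deviation of chromosome 8 genes was 0.06 to 0.09 in C1M and -0.02 to 0.02 in C1H, and -0.11 to -0.01 in C1. Lower genes described here that lie on this chromosome are Fuk, Kbtbd11, Hsbp1, Prdx2, Mcm5, Gins2, Ier2, Rpl13, Lsm4 and Apela, and Cdh1 (-0.08) and Nkd1 (0.96), which did not pass the test, lie there too. The part of the chromosome in their differences was not tested.

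Further single genes were named after their values were seen. Mybl1, a factor of meiosis in males, rose from 73.4, 74.5, 89.0 and 86.7 CPM to 128, 116, 105 and 121 CPM (0.54, edgeR's adjusted p = 0.00034), and Brdt, a bromodomain protein of the testis, from 31.3 to 38.8 CPM to 42.1 to 53.2 CPM (0.52, adjusted p = 0.043). On the list of germ cell and meiosis genes 1 of 23, Kit, was called (1.77% of all tested genes were), with a median of 0.23, and Kit did not pass with the length trend taken out (adjusted p = 0.11). Dact3, which acts on Dishevelled, rose from 33.1 to 40.1 CPM to 41.0 to 74.3 CPM (0.56, adjusted p = 0.011). The small protein hormone Apela fell from 107 to 147 CPM to 86.8 to 98.1 CPM (-0.43, adjusted p = 0.00059).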
